A study of Mus musculus with 8 samples.

Results

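The ionotropic receptors for GABA and glutamate are the channels through which fast inhibition and excitation reach the neurons of the hypothalamus, and the transcripts of 33 of their subunits were compared among 4 hypothalamic nuclei. The members were 16 subunits of GABA-A receptors and 17 subunits of glutamate receptors, taken as a list of genes, and every probe whose RefSeq accession belongs to a listed gene was used. All 33 genes had at least 1 probe, with 45 probes in all among the 55681 probes of the array and the 20284 genes that the array names, and 12 genes had more than 1. Other subunits of these receptors were not analysed here.

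RNA was collected by laser microdissection from the arcuate nucleus (Arc), the ventromedial hypothalamic nucleus (VMH), the dorsomedial hypothalamic nucleus (DMH), and the lateral hypothalamus (LH) of C57BL/6 females (C57BL/6J in the methods) at 3 months of age. All 4 groups share this strain, sex, and age, and no transgene, diet, or agent is named for any of them. Each nucleus was measured on 2 arrays (n = 2), which are named Arc1 and Arc2, VMH1 and VMH2, DMH1 and DMH2, and LH1 and LH2. The methods name 2 mice and an amplification of the RNA before labelling, and which arrays share a mouse is not given, so p-values measure the spread between these arrays.

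GABA-A receptors are pentameric chloride channels, in most cases made of alpha and beta subunits with a gamma or a delta subunit, and the GABA binding site lies between an alpha and a beta subunit. Most receptors at synapses hold a gamma subunit, which with certain alpha subunits forms the benzodiazepine site, and receptors with a delta subunit sit mainly outside them and carry tonic inhibition. Glutamate receptors are tetrameric cation channels of the AMPA, kainate, and NMDA classes, of which AMPA receptors carry most of the fast current and NMDA receptors admit calcium on coincident binding of glutamate and depolarization. In the hypothalamus these receptors set the firing of neurons that control feeding, energy expenditure, reproduction, and sleep.

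Signals are given as scaled signals, namely the background-subtracted signal of a probe after each array was brought to a common 75th percentile. The scaled signal of 1 probe can be compared among arrays, and it cannot be compared with that of another probe. The share of spots well above background was 47.1% to 52.7% per array, no spot was saturated, and the lowest scaled signal that counted as measured lay between 79.3 on LH1 and 132 on LH2. In the Arc, VMH, and DMH each array correlated best with its own replicate (r = 0.971 to 0.981 across probes), whereas LH1 and LH2 correlated at 0.938 and LH2 was nearer to DMH2 (r = 0.954). The markers of each nucleus were highest in the nucleus of that name. Most of these markers, among them *Agrp*, *Npy*, *Kiss1*, *Nr5a1*, *Fezf1*, *Pvalb*, and all of those of the DMH, are on lists that the study chose on these arrays, so their order is no independent check of the labels. The summed scaled signal of *Agrp*, *Npy*, *Pomc*, and *Kiss1* was 130720.00 to 143568 in the Arc and at most 5128 elsewhere, and that of *Nr5a1* and *Fezf1* was 17676 to 19749.7 in the VMH and at most 775 elsewhere. The sum of the LH markers *Hcrt*, *Pmch*, and *Pvalb* was 129476 to 141151 in the LH but also 63344 to 72623 in the DMH. The sum of the DMH markers *Prdm13*, *Npvf*, and *Grp* was 8377 to 11001 in the DMH, 923 on LH1, and 89.5 on LH2. It was 503 on VMH1, 114 on VMH2, and 199 to 263 in the Arc. Pairwise calls with the LH that changed when LH1 or LH2 was left out are therefore given with the comparisons of pairs of nuclei.

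The 4 nuclei differed in the transcripts of 8 of 14 tested GABA-A receptor subunits and 3 of 16 tested glutamate receptor subunits. A probe entered the test where its signal was well above background on the 2 arrays of some nucleus, which 30 of the 33 members reached, and 11 of these differed among the nuclei (limma F-test, Benjamini-Hochberg adjusted p under 0.05), where 10.8% of all named genes tested did. These were *Gabra2*, *Gabra5*, *Gabrb1*, *Gabrb2*, *Gabrd*, *Gabre*, *Gabrq*, and *Gabrr2* for GABA-A receptors and *Gria3*, *Grin2c*, and *Grin3a* for glutamate receptors, and the difference between the classes was not tested. A ratio of at least 2 between the highest and the lowest nucleus was seen for 18 of the 30, where 27.2% of all named genes had one. *Gabra2*, *Gabrd*, and *Gabrr2* passed the filter on dim signals through the nuclei in which they were high, so the count was also taken over the 25 members well above background on all 8 arrays, of which 8 were called, where 8.52% of 11167 named genes measured on all arrays were. The median ratio of the highest to the lowest nucleus over these 25 members was 2.06, and over those 11167 genes it was 1.49. The count of 11 became 5 without Arc1, VMH1, or VMH2, 6 without Arc2, and 7 without DMH1.

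Among the 11 called members, 5 were highest in the VMH (*Gabra2*, *Gabra5*, *Gabrb1*, *Gabrd*, and *Gria3*), 3 in the LH (*Gabrb2*, *Gabrr2*, and *Grin2c*), 2 in the DMH (*Gabrq* and *Grin3a*), and 1 in the Arc (*Gabre*). Of all named genes tested, 3.15% passed the F-test with their highest mean in the VMH, 4.45% in the LH, 0.782% in the DMH, and 2.41% in the Arc. Of the 8 called members measured on all 8 arrays, 3 were highest in the VMH, 2 in the LH, 2 in the DMH, and 1 in the Arc. Shares of named genes by nucleus were not taken under that filter. The Arc had the lowest mean for 6 of the 11, namely *Gabrb1*, *Gabrb2*, *Gabrd*, *Gria3*, *Grin2c*, and *Grin3a*. For *Gabrb1* and *Gabrd* an array of another nucleus lay below the Arc arrays, and *Gabrd* was not well above background in the Arc. Of the 8 called members measured on all 8 arrays, 5 were lowest in the Arc. The share of all named genes tested that passed the F-test with their lowest mean in the Arc was 4.94%. In tissue of mixed cells, fewer cells of a type and less RNA per cell cannot be told apart. The summed signal of 8 neuronal markers moved with this order: it was 167648 to 171447 in the Arc, 186660.00 to 192158 in the DMH, 218758 to 223495 in the LH, and 234073 to 259714 in the VMH, with 6 of the 8 lowest in the Arc, 3 of the 8 past the F-test, 2 of these lowest in the Arc and 1 in the DMH, and none of them below background. Oligodendrocyte markers were also lowest in the Arc, for 8 of 8 genes and all 8 past the F-test, with summed signals of 13266 to 21608 there and at least 32418 elsewhere. Astrocyte markers were lowest there for 5 of 7 genes, but of the 2 past the F-test 1 was lowest and 1 highest in the Arc, with summed signals of 33142 to 39479.6 in the Arc and at least 41694 elsewhere. The part of these cells in the result was not tested.

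**Figure D1:**
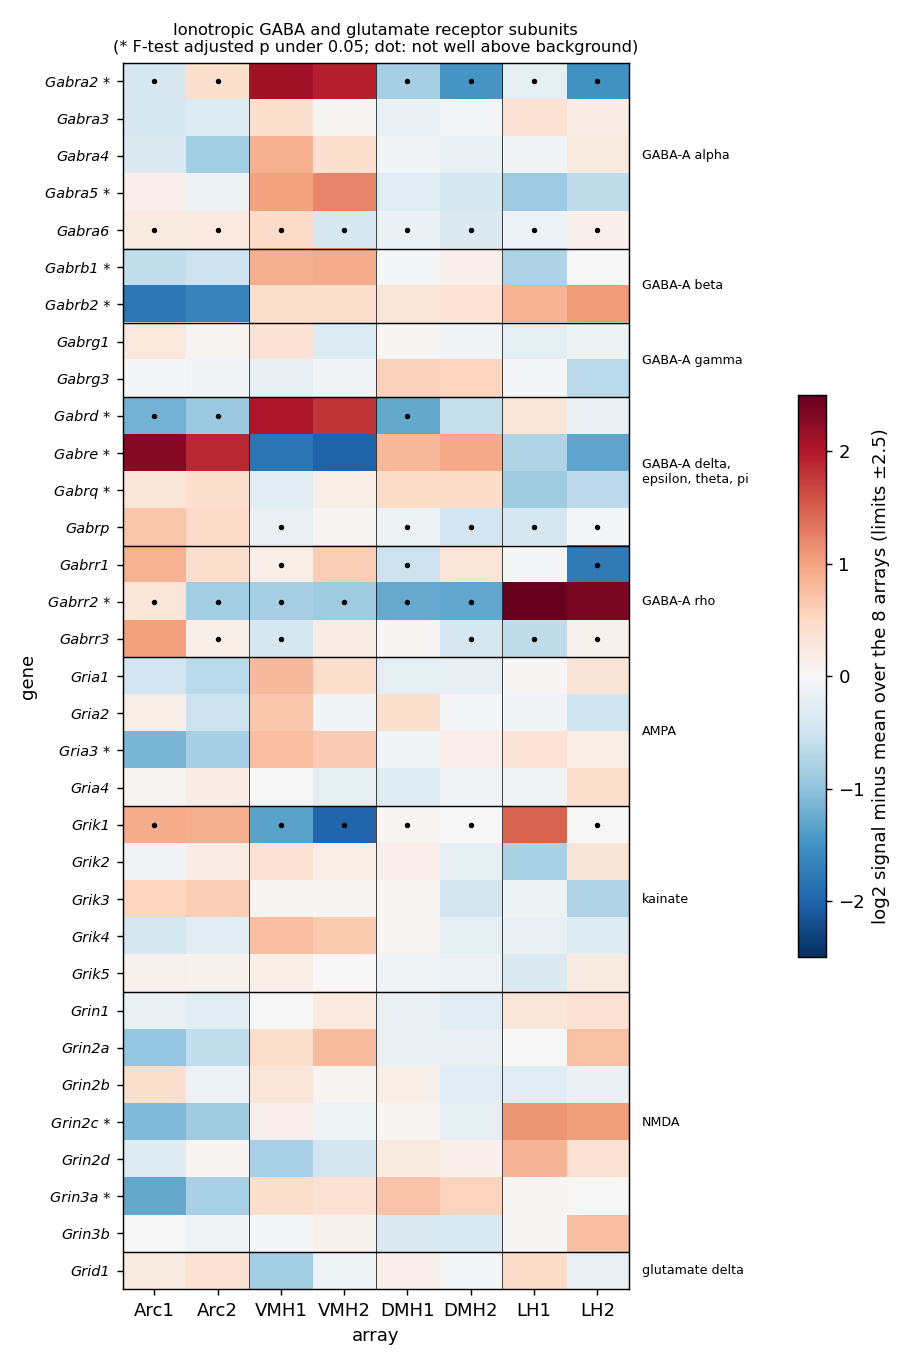
Each row is 1 of the 33 subunit genes, grouped by receptor class, and each column is 1 of the 8 arrays, with the colour giving the log2 signal minus the mean of the gene over the 8 arrays. A dot marks an array on which the probe was not well above background and a star marks the 11 genes past the F-test. *Gabre* stands out in red in the Arc, *Gabrb2* in blue in the Arc, *Gabra2* and *Gabrd* in red in the VMH, and *Gabrr2* in red in the LH.

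Several GABA-A genes are neighbours in the genome, which gives pairs of adjacent genes with like or unlike patterns. By the order of genes in the RefSeq annotation, no other protein-coding gene lies between *Gabrg1* and *Gabra2*, between *Gabra4* and *Gabrb1*, between *Gabrg3* and *Gabra5*, between *Gabra6* and *Gabrb2*, between *Gabrr2* and *Gabrr1*, or between *Gabra3* and *Gabrq*, and *Gabre* lies in the same group of genes as *Gabra3* and *Gabrq* on the X chromosome. The 250 bases before the start site are shown for *Gabre* and *Gabrq*, since both genes differed among the nuclei and sit close to each other, and for *Gabra2* and *Gabrg1*, since these adjacent genes had unlike patterns. The sequences are those of RefSeq on GRCm38.p6, at chrX:72274722-72274971 on the minus strand for *Gabre*, chrX:72824928-72825177 on the plus strand for *Gabrq*, chr5:71095850-71096099 on the minus strand for *Gabra2*, and chr5:70842618-70842867 on the minus strand for *Gabrg1*, and each reads in the direction of its gene. Capitals mark the GC box, the letters GGGCGG on either strand.
Gabre: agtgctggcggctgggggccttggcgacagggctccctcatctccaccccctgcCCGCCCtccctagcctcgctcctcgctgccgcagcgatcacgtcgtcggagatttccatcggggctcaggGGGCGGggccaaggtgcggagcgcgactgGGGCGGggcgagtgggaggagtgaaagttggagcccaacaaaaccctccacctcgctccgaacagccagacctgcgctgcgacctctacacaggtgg
Gabrq: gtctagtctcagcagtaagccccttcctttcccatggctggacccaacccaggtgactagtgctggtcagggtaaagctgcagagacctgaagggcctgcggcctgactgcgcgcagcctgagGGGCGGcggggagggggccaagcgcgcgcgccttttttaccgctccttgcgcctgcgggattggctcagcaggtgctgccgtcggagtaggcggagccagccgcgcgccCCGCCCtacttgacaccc
Gabra2: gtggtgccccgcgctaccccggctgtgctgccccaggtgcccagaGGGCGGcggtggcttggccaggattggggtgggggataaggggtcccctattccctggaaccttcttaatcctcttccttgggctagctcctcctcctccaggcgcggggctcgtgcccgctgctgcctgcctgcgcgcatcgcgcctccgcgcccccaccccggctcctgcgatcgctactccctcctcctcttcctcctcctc
Gabrg1: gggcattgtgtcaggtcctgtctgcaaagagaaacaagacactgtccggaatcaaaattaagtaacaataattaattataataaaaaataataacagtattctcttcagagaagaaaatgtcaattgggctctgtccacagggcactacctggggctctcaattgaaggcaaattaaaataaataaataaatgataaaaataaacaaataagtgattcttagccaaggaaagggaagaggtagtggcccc
The share of G and C was 68.8% for *Gabre*, 67.2% for *Gabrq*, 70.0% for *Gabra2*, and 35.6% for *Gabrg1*, where the median was 52.4% over all 32851 promoter windows and 58.8% over the 29 windows found for 25 members. The GC box occurred in 11 of the 29 windows of members and in 32.7% of all windows. The TATA box TATAAA occurred in 4 of the 29 and in 12.4% of all. The letters AAGGTCA, the binding motif of the VMH factor *Nr5a1*, occurred in 1 of the 29, that of *Grin2c*, and in 4.08% of all, and the cyclic AMP response element TGACGTCA in none of the 29 and in 1.55% of all. Both strands were searched, and no motif of the 4 overlaps another in its letters. A match is a description of the letters only.

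The epsilon subunit gene *Gabre* had the largest ratio between nuclei among the 25 members measured on all 8 arrays. The epsilon subunit is one of the less common GABA-A subunits, known from the hypothalamus and brain stem, and makes receptors insensitive to benzodiazepines. The scaled signals of *Gabre* were 16207 and 12316 in the Arc, 933 and 818 in the VMH, 5798 and 6415 in the DMH, and 1977 and 1339 in the LH. Both Arc arrays lay above all others, both DMH arrays lay above both LH arrays, and both VMH arrays lay below all others. The Arc exceeded the VMH 16.2-fold (log2 Arc minus VMH 4.02 ± 0.26 (SE), adjusted p = 0.000768; F-test adjusted p = 0.00165). It also exceeded the LH (log2 Arc minus LH 3.12 ± 0.26 (SE), adjusted p = 0.0018), whereas the Arc and the DMH differed by 1.21 ± 0.26 on the log2 scale without passing the test (adjusted p = 0.103). The DMH was higher than both the VMH (log2 VMH minus DMH -2.80 ± 0.26 (SE), adjusted p = 0.00458) and the LH (log2 DMH minus LH 1.91 ± 0.26 (SE), adjusted p = 0.0366). Leaving out any 1 array kept the F-test adjusted p of *Gabre* at 0.000599 to 0.0127, while the difference of the DMH from the LH was lost without any 1 array of the Arc, VMH, or DMH (adjusted p = 0.0679 to 0.173). The markers of ependymal cells and tanycytes also peaked in the Arc, with a summed signal of 5517 to 5990.2 there and 1562 to 2182 in the other nuclei. Of these 6 markers, the 4 tested were all highest in the Arc and 3 of the 4 were called, and *Foxj1* and *Tmem212* were not above background on any array. The part of these cells in the result was not tested.

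*Gabrq* encodes the theta subunit, which can join epsilon-containing receptors. On the arrays it gave 2129 and 2294 in the Arc, 1419 and 1919 in the VMH, 2373 and 2345 in the DMH, and 923 and 1095 in the LH. Both DMH arrays lay just above both Arc arrays, all 4 within 2129 to 2373, and both LH arrays lay below all others. The LH was lower than the Arc (log2 Arc minus LH 1.14 ± 0.23 (SE), adjusted p = 0.0255), while the difference of the DMH from the LH was 1.23 ± 0.23 (adjusted p = 0.0646). The F-test of *Gabrq* lay close to the threshold (adjusted p = 0.0444), and it was lost without any 1 of the 8 arrays (adjusted p = 0.0524 to 0.136). It was also lost without scaling between arrays (adjusted p = 0.129) and without the filter on dim probes (adjusted p = 0.0951).

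Both beta subunits in the set differed among the nuclei, in unlike ways. The beta subunits are needed for assembly of the channel and, with alpha, form the site that GABA binds. *Gabrb2* had scaled signals of 2432 and 2689 in the Arc, 11559.7 and 11572 in the VMH, 10515 and 10798 in the DMH, and 15663 and 17859 in the LH. The Arc arrays lay far below the 6 others, which spanned 10515 to 17859. The Arc was lower than the VMH (log2 Arc minus VMH -2.18 ± 0.19 (SE), adjusted p = 0.00202), the DMH (log2 Arc minus DMH -2.06 ± 0.19 (SE), adjusted p = 0.00559), and the LH (log2 Arc minus LH -2.71 ± 0.19 (SE), adjusted p = 0.00118). The F-test adjusted p was 0.00213, and that call held with any 1 array left out. The pairwise call of Arc minus DMH was lost without Arc1, Arc2, or DMH1, and the other 2 held. No pair of the VMH, DMH, and LH passed the test for *Gabrb2*, with adjusted p-values of 0.881 for VMH minus DMH, 0.172 for VMH minus LH, and 0.194 for DMH minus LH.

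*Gabrb1* was highest in the VMH, with scaled signals of 15953 and 16857 in the Arc, 45351 and 46239 in the VMH, 23520.3 and 26687 in the DMH, and 14250.4 and 24048 in the LH. Both VMH arrays lay above all others, and the LH arrays lay on either side of the Arc arrays. The VMH was higher than the Arc (log2 Arc minus VMH -1.48 ± 0.27 (SE), adjusted p = 0.0267) and the LH (log2 VMH minus LH 1.31 ± 0.27 (SE), adjusted p = 0.0432). Its F-test adjusted p was 0.0497, and it passed the threshold only without LH1 (0.0167) or LH2 (0.00881) when 1 array was left out, with 0.0989 to 0.201 without each of the 6 others. The call was also lost without the filter on dim probes (adjusted p = 0.0938) and with outlier spots kept (adjusted p = 0.0526).

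Of the alpha subunits, which with gamma decide the response to benzodiazepines, *Gabra2* and *Gabra5* differed among the nuclei and were highest in the VMH. *Gabra2* was measured only in the VMH, with scaled signals of 63.5 and 109 in the Arc, 355 and 319 in the VMH, 47.1 and 30.2 in the DMH, and 71.3 and 29.4 in the LH, and the 6 arrays outside the VMH were not well above background. The VMH was at least 3.60-fold higher than the DMH (adjusted p = 0.0222) and at least 3.29-fold higher than the LH (adjusted p = 0.0203). Against the Arc the bound was at least 2.98-fold, and the test was not passed (adjusted p = 0.0577). Such a bound sets the mean of the bright arrays against, on each dim array, the lowest signal that counted as measured there. The p-values given with such bounds, here and below, are those of the limma tests on the scaled signals, dim ones included. They do not test the bound. The F-test of *Gabra2* (adjusted p = 0.0228) was lost without Arc1 (0.0558), Arc2 (0.0555), VMH1 (0.134), VMH2 (0.111), DMH1 (0.0501) and DMH2 (0.0603).

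The subunit encoded by *Gabra5*, known for receptors outside synapses that carry tonic current, was measured on all 8 arrays. The signals of *Gabra5* were 866 and 720.4 in the Arc, 1586 and 1836 in the VMH, 654 and 603 in the DMH, and 419.5 and 509 in the LH. Both VMH arrays were above all others and both LH arrays were below all others. The VMH exceeded the Arc (log2 Arc minus VMH -1.11 ± 0.22 (SE), adjusted p = 0.0312), the DMH (log2 VMH minus DMH 1.44 ± 0.22 (SE), adjusted p = 0.0222), and the LH (log2 VMH minus LH 1.88 ± 0.22 (SE), adjusted p = 0.00663). For *Gabra5* the F-test adjusted p was 0.011, and that call was lost without VMH1 or VMH2. The pairwise calls against the Arc and the DMH were lost without any 1 array of the Arc, VMH, or DMH, and that against the LH held.

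*Gabra4*, whose product pairs with the delta subunit in many brain regions, did not pass the F-test (adjusted p = 0.103). Its scaled signals were 256 and 182 in the Arc, 605 and 431 in the VMH, 312 and 287 in the DMH, and 313 and 379.6 in the LH, so that both VMH arrays were the highest and both Arc arrays the lowest. The pairwise test of Arc minus VMH was passed (log2 -1.24 ± 0.27 (SE), adjusted p = 0.0443) and lost without any 1 array of the Arc, VMH, or DMH (adjusted p = 0.0857 to 0.244). *Gabra3* had a high signal on all arrays, 8682 to 15092, a ratio of 1.55 between the highest and the lowest nucleus, and an F-test adjusted p of 0.236. *Gabra6*, a subunit known from cerebellar granule cells, was well above background on none of the 8 arrays and was not tested.

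The delta subunit gene *Gabrd* was high in the VMH as well. *Gabrd* had scaled signals of 70.8 and 84 in the Arc, 654 and 558 in the VMH, 65.8 and 108 in the DMH, and 199 and 144 in the LH, and only the VMH arrays, the LH arrays, and DMH2 were well above background. The VMH arrays lay above all others, and the LH arrays lay above those of the Arc and DMH. The VMH was at least 5.34-fold higher than the Arc (adjusted p = 0.00345), and it also exceeded the DMH (adjusted p = 0.00697, with no size given since DMH1 was not well above background) and the LH (log2 VMH minus LH 1.84 ± 0.30 (SE), adjusted p = 0.0209). The F-test adjusted p was 0.00571, and that call held with any 1 array left out. The pairwise calls against the DMH and the LH were lost without VMH1 or VMH2, and that against the Arc held. In all, *Gabra2*, *Gabra5*, and *Gabrd* were each higher in the VMH than in the DMH, where 1.53% of all named genes were. Of these, *Gabra2* and *Gabrd* entered the test through the nuclei in which they were high, and with the filter on all 8 arrays the members that differed between the VMH and the DMH fell from 4 to 2.

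The rho subunits form channels known mainly from the retina. *Gabrr2* was measured only in the LH, with scaled signals of 57.9 and 25.5 in the Arc, 26.3 and 25 in the VMH, 19.4 and 19 in the DMH, and 262 and 239.5 in the LH. Both LH arrays lay at or above 239.5, and no array of another nucleus was well above background. The LH was at least 2.21-fold higher than the Arc (adjusted p = 0.00678), at least 2.41-fold higher than the VMH (adjusted p = 0.00581), and at least 2.67-fold higher than the DMH (adjusted p = 0.0155). The F-test adjusted p of *Gabrr2* was 0.00543, and that call held with any 1 array left out. The call of VMH minus LH was lost without VMH1, and that of DMH minus LH without any 1 array of the VMH or DMH. With each dim signal raised to the lowest that counted as measured on its array, LH minus DMH fell from 3.71 to 1.42 on the log2 scale. The F-test adjusted p of *Gabrr2* was then 0.0226. Its neighbour *Gabrr1* had the highest mean in the Arc, with scaled signals of 292 and 215 in the Arc, 178 and 245 in the VMH, 110.2 and 198 in the DMH, and 158 and 47.3 in the LH, of which VMH1, DMH1, and LH2 were not well above background, and its F-test was not passed (adjusted p = 0.324) except without LH1 (0.0412). *Gabrr3* was well above background on 3 arrays with its brighter probe and on none with the other, and was not tested. Oligodendrocyte markers were highest in the LH for 8 of 8 genes, all 8 past the F-test, with a summed signal of 123292 to 129439 in the LH, 36892 to 44216 in the VMH, 32418 to 32609 in the DMH, and 13266 to 21608 in the Arc. The summed signal of 7 astrocyte markers was 62799 to 65076 in the LH and at most 45627 elsewhere, with 4 of the 7 highest in the LH, and of the 2 past the F-test 1 was highest in the LH and 1 in the Arc, and none of either list was below background. The part of these cells in *Gabrr2* and the other transcripts that were highest in the LH was not tested.

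The gamma and pi subunits did not pass the F-test with the probe that represents each gene. *Gabrg1* spanned 1757 to 2836 over the 8 arrays, both on VMH arrays, and its F-test adjusted p was 0.781. The dimmer probe of *Gabrg1* differed from it, with scaled signals of 894 and 945 in the Arc, 592 and 564 in the VMH, 550.5 and 629 in the DMH, and 343 and 209 in the LH and an F-test adjusted p of 0.0311, and with it the Arc was higher than the LH (log2 Arc minus LH 1.78 ± 0.27 (SE), adjusted p = 0.0102). *Gabrg3* had its highest mean in the DMH with both of its probes, at 6834 and 6664 with the brighter probe against 2855 to 4417 on the 6 other arrays, and its F-test adjusted p-values were 0.168 and 0.101. *Gabrp*, the gene of the pi subunit known mainly from tissues outside the brain, was well above background on 3 arrays, namely Arc1, Arc2, and VMH2, and spanned 81.9 to 183 (F-test adjusted p = 0.154).

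**Figure D2:**
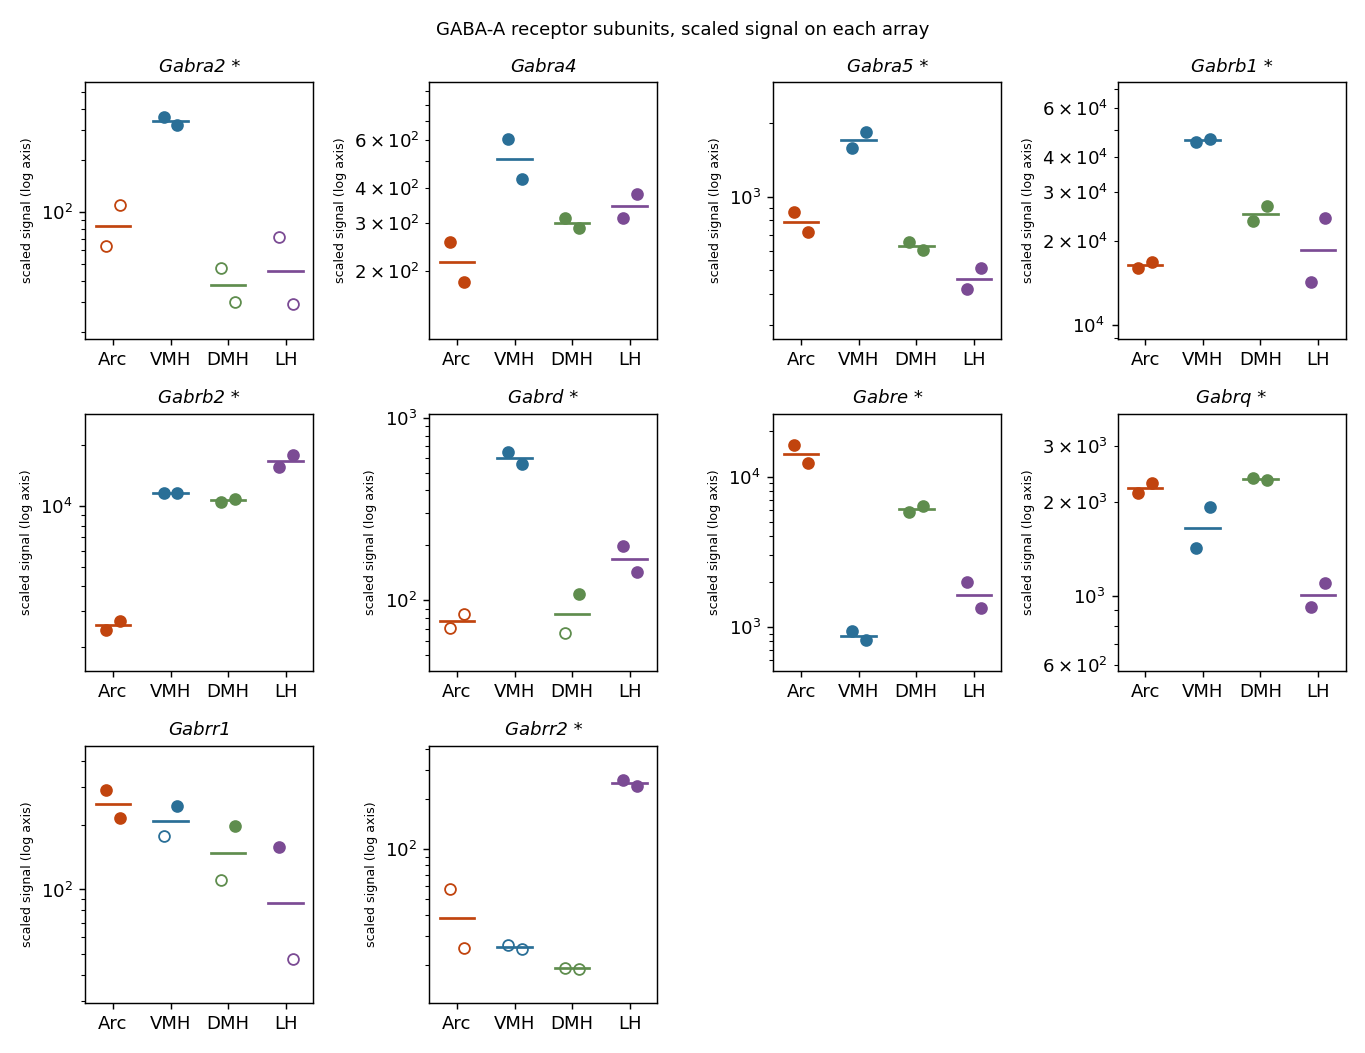
Each panel shows the scaled signal of 1 GABA-A receptor subunit (log axis, own range in each panel) on the 2 arrays of each nucleus, with a line at the mean of the log2 values. Open points were not well above background and a star marks an F-test adjusted p under 0.05. *Gabra2*, *Gabra5*, *Gabrb1*, and *Gabrd* are highest on both VMH arrays, *Gabrr2* on both LH arrays, and *Gabre* on both Arc arrays, and *Gabrb2* is lowest on both Arc arrays.

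All but 1 of the 17 glutamate receptor subunits were measured on all 8 arrays, and 3 passed the F-test. Among the AMPA receptor subunits, the carriers of fast excitation, *Gria3* differed among the nuclei. It had scaled signals of 854 and 1061 in the Arc, 3198 and 2951 in the VMH, 1812 and 2059 in the DMH, and 2398 and 2131 in the LH. Both Arc arrays lay below all others and both VMH arrays above all others. The Arc was lower than the VMH (log2 Arc minus VMH -1.69 ± 0.21 (SE), adjusted p = 0.00665) and the LH (log2 Arc minus LH -1.25 ± 0.21 (SE), adjusted p = 0.0155). With all arrays the F-test adjusted p was 0.0149, and the call was lost without Arc1 (0.107), Arc2 (0.0671), VMH1 (0.0672) and VMH2 (0.0568). A dimmer probe of *Gria3* was not well above background in the Arc and gave the VMH at least 4.06-fold higher than the Arc (adjusted p = 0.0485), although its F-test was not passed (adjusted p = 0.102).

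*Gria1* had the same lowest and highest nucleus, with scaled signals of 2726 and 2367 in the Arc, 6611 and 5126 in the VMH, 3204 and 3255 in the DMH, and 3832 and 4730.2 in the LH, and no array of the Arc overlapped those of the other nuclei. Its F-test was not passed (adjusted p = 0.0594), except without LH1 (0.0422) or LH2 (0.0443), while the Arc was lower than the VMH in the pairwise test (log2 Arc minus VMH -1.20 ± 0.23 (SE), adjusted p = 0.0288), a call lost without any 1 array of the Arc, VMH, or DMH (adjusted p = 0.0619 to 0.175). *Gria2*, whose edited subunit keeps AMPA receptors from passing calcium, did not pass the F-test with its brighter probe, which spanned 3725 to 8735 with both LH arrays below those of the VMH and DMH and the Arc arrays on either side of them (adjusted p = 0.561). With a dimmer probe of *Gria2* the VMH was higher than the Arc (log2 Arc minus VMH -1.45 ± 0.28 (SE), adjusted p = 0.0311), and the F-test adjusted p was 0.0655. *Gria4* had a ratio of 1.28 between the highest and the lowest nucleus and an F-test adjusted p of 0.611.

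No kainate receptor subunit passed the F-test. *Grik4*, which encodes a high-affinity subunit that needs a partner to form a channel, was the nearest to it (adjusted p = 0.0566). *Grik4* had scaled signals of 1345 and 1509 in the Arc, 3036 and 2848 in the VMH, 1876 and 1524 in the DMH, and 1599 and 1451 in the LH, and both VMH arrays lay above all others. In pairwise tests the VMH exceeded the Arc (log2 Arc minus VMH -1.05 ± 0.21 (SE), adjusted p = 0.0327) and the LH (log2 VMH minus LH 0.95 ± 0.21 (SE), adjusted p = 0.0479). The first of these calls was lost without any 1 array of the Arc, VMH, or DMH (adjusted p = 0.0563 to 0.209) and the second without any 1 of the 8 arrays (0.0632 to 0.221). *Grik3* had scaled signals of 3859 and 4099 in the Arc, 2805 and 2762 in the VMH, 2737 and 1947 in the DMH, and 2443 and 1583 in the LH, highest on the Arc arrays, with an F-test adjusted p of 0.175, and its dimmer probe had a ratio of 1.24 between the highest and the lowest nucleus. *Grik2* and *Grik5* had ratios of 1.42 and 1.15, and the smaller of their F-test adjusted p-values was 0.755. *Grik1* was well above background on Arc2 and LH1 only, so it was not tested. Its scaled signals were 138 and 136 in the Arc, 28.8 and 18.3 in the VMH, 74.6 and 72.1 in the DMH, and 203 and 71.9 in the LH.

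Among the NMDA receptor subunits, *Grin2c* and *Grin3a* differed among the nuclei. *Grin2c* encodes a glutamate-binding subunit whose receptors are less sensitive to block by magnesium. Its scaled signals were 340.4 and 399 in the Arc, 800.1 and 685 in the VMH, 762 and 620.3 in the DMH, and 1587 and 1523 in the LH. Both LH arrays lay above all others and both Arc arrays below all others, with the VMH and DMH overlapping in between. The LH was higher than the Arc (log2 Arc minus LH -2.08 ± 0.21 (SE), adjusted p = 0.00298) and the VMH (log2 VMH minus LH -1.07 ± 0.21 (SE), adjusted p = 0.037), and the VMH was higher than the Arc (log2 Arc minus VMH -1.01 ± 0.21 (SE), adjusted p = 0.0413). The difference of the DMH from the LH was -1.18 ± 0.21 on the log2 scale (adjusted p = 0.0639). For *Grin2c* the F-test adjusted p was 0.00864, and that call was lost without Arc1. The pairwise call of VMH minus LH was lost without any 1 array other than LH2. That of Arc minus VMH was lost without any 1 array of the Arc, VMH, or DMH, and that of Arc minus LH held.

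*Grin3a*, whose subunit binds glycine and lowers the calcium permeability of NMDA receptors, was lowest in the Arc. It had scaled signals of 447 and 616 in the Arc, 1473 and 1381 in the VMH, 1781 and 1583 in the DMH, and 1108 and 1071 in the LH. The Arc arrays lay below all others, and both DMH arrays lay above all others. The Arc was lower than the VMH (log2 Arc minus VMH -1.44 ± 0.22 (SE), adjusted p = 0.0143), the DMH (log2 Arc minus DMH -1.68 ± 0.22 (SE), adjusted p = 0.0196), and the LH (log2 Arc minus LH -1.05 ± 0.22 (SE), adjusted p = 0.0322). The F-test adjusted p was 0.0163, and the call was lost without Arc1 (0.104), Arc2 (0.0508), VMH1 (0.0587), VMH2 (0.0529) and DMH1 (0.0563).

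The other NMDA receptor subunits did not pass the F-test. *Grin2a*, a glutamate-binding subunit, had scaled signals of 376 and 475 in the Arc, 987 and 1269 in the VMH, 640.4 and 642 in the DMH, and 726 and 1214 in the LH, with both Arc arrays below all others, and the Arc was lower than the VMH in the pairwise test (log2 Arc minus VMH -1.41 ± 0.30 (SE), adjusted p = 0.041), while its F-test adjusted p was 0.077, or 0.0234 without LH1 and 0.033 without LH2. That pairwise call of *Grin2a* was lost without any 1 array of the Arc, VMH, or DMH (adjusted p = 0.0824 to 0.248). A dimmer probe of *Grin2a* was also highest in the VMH and lowest in the Arc (F-test adjusted p = 0.09). *Grin2d* had the opposite end in the VMH, with scaled signals of 652 and 834 in the Arc, 467 and 594 in the VMH, 956 and 891 in the DMH, and 1488 and 1074 in the LH. Its LH arrays lay above all others and its VMH arrays below all others, and the LH exceeded the VMH (log2 VMH minus LH -1.26 ± 0.26 (SE), adjusted p = 0.0386). Its F-test was not passed (adjusted p = 0.0803), except without LH2. That pairwise call of *Grin2d* was lost without any 1 array other than LH2. *Grin1*, the subunit that every NMDA receptor needs, spanned 5429 to 8471 (F-test adjusted p = 0.214), and *Grin2b* and *Grin3b* had ratios of 1.32 and 1.69 between the highest and the lowest nucleus. *Grid1*, a glutamate delta subunit that links synapses through cerebellins, had a ratio of 1.71 and an F-test adjusted p of 0.396.

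**Figure D3:**
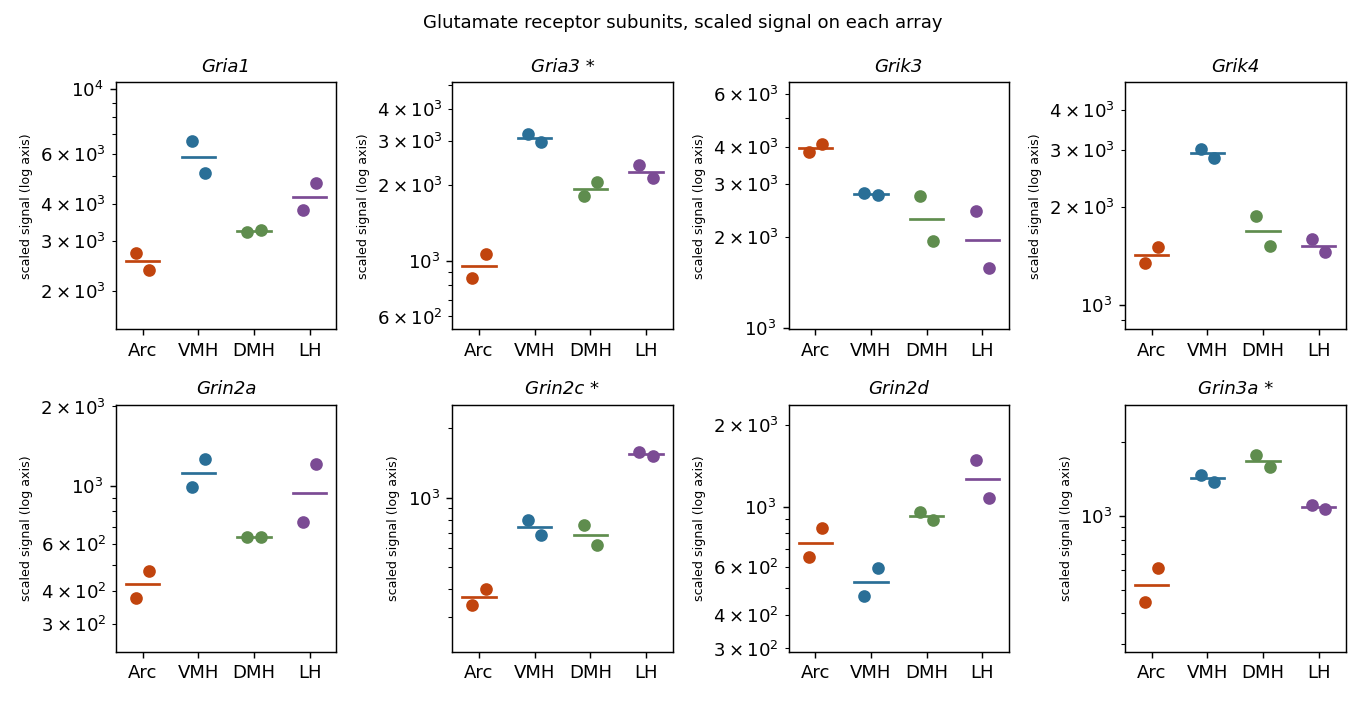
Each panel shows the scaled signal of 1 glutamate receptor subunit (log axis, own range in each panel) on the 2 arrays of each nucleus, with a line at the mean of the log2 values and a star for an F-test adjusted p under 0.05. *Gria1*, *Gria3*, *Grin2a*, *Grin2c*, and *Grin3a* are lowest on both Arc arrays, and *Grin2c* and *Grin2d* are highest on both LH arrays.

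Between pairs of nuclei, the Arc and the VMH differed in the most subunits with all arrays, an order that was lost without some single arrays. Of the 30 tested members, 12 differed between them, where 7.74% of all named genes did. *Gabre* was higher in the Arc, as were 3.06% of genes, and *Gabra4*, *Gabra5*, *Gabrb1*, *Gabrb2*, *Gabrd*, *Gria1*, *Gria3*, *Grik4*, *Grin2a*, *Grin2c*, and *Grin3a* were higher in the VMH, as were 4.68% of genes. Over all 30 members the median of Arc minus VMH was -0.28 on the log2 scale, and over all 13167 named genes it was -0.05. Between the VMH and the LH, 8 members differed, where 6.82% of genes did, with *Gabra2*, *Gabra5*, *Gabrb1*, *Gabrd*, and *Grik4* higher in the VMH and *Gabrr2*, *Grin2c*, and *Grin2d* higher in the LH. The Arc and the LH differed in 7 members, with *Gabre* and *Gabrq* higher in the Arc and *Gabrb2*, *Gabrr2*, *Gria3*, *Grin2c*, and *Grin3a* higher in the LH, where 11.8% of genes differed. Between the VMH and the DMH, 4 members differed (*Gabra2*, *Gabra5*, and *Gabrd* higher in the VMH and *Gabre* higher in the DMH), where 2.83% of genes did. The DMH differed from the Arc in *Gabrb2* and *Grin3a*, both higher in the DMH, where 1.72% of genes differed, and from the LH in *Gabre*, higher in the DMH, and *Gabrr2*, higher in the LH, where 1.18% did. Each nucleus enters 3 of these 6 comparisons, and p-values were adjusted within each comparison and not across the 6. *Gabra4*, *Gria1*, *Grik4*, *Grin2a*, and *Grin2d* were called in pairwise tests without passing the F-test. With 1 array left out, the count for Arc minus VMH became 3 without Arc1 or VMH1, 4 without VMH2, and 5 without Arc2, DMH1, or DMH2, and VMH minus LH became 1 without VMH1, 2 without VMH2, 4 without Arc1, Arc2, DMH1, or DMH2, and 5 without LH1. Arc minus LH became 4 without Arc1 or Arc2 and was 6 without VMH1 or VMH2 and 5 without DMH1 or DMH2, so that it exceeded Arc minus VMH without Arc1, VMH1, or VMH2 and equalled it without DMH1 or DMH2, and VMH minus DMH became 1 without VMH1 or VMH2 and 2 without DMH1 or DMH2. Arc minus DMH became 0 without Arc1, Arc2, or DMH1 and 1 without VMH1, VMH2, or DMH2, and DMH minus LH became 0 without VMH1, VMH2, DMH1, or DMH2 and 1 without Arc1 or Arc2.

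Of the 35 pairwise calls of members, 9 held with any 1 array left out and 26 were lost without at least 1 array. Those that held were *Gabre* for Arc minus VMH, Arc minus LH, and VMH minus DMH, *Gabrb2* for Arc minus VMH and Arc minus LH, *Gabrd* for Arc minus VMH, *Gabra5* for VMH minus LH, and *Gabrr2* and *Grin2c* for Arc minus LH. Several pairwise calls with the LH changed when 1 of its arrays was left out, though the calls lost were also lost without arrays of other nuclei. Without LH1, the VMH and the LH no longer differed past the threshold in *Gabrb1* (adjusted p = 0.0645), *Grik4* (0.0632), *Grin2c* (0.0686), and *Grin2d* (0.0807), nor the Arc and the LH in *Gabrq* (0.0564) and *Grin3a* (0.0605). Without LH2, the calls lost were *Grik4* for VMH minus LH (0.0802) and *Grin3a* for Arc minus LH (0.0512), both of which were lost without any 1 of the 8 arrays (up to 0.221 and 0.196). The calls gained without LH1 were *Grik3* (0.0289), *Grin2a* (0.0191), and *Gabrr1* (0.0168) for Arc minus LH, *Gabrr1* for VMH minus LH (0.0331), and *Gabrg3* for DMH minus LH (0.0433), where *Gabrr1* on the remaining LH2 was not well above background. Those gained without LH2 were *Gabrd* for Arc minus LH (0.0483), *Gabre* for VMH minus LH (0.0428), and *Gabrq* for DMH minus LH (0.0414). Between nuclei other than the LH, *Gabra2* passed for Arc minus VMH (0.0161) and *Gabre* for Arc minus DMH (0.0493) with LH1 or with LH2 left out.

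The relation between subunit transcripts was described by the ratio of 2 of them on the same array. In tissue of mixed cells such a ratio does not give the subunits that share a cell or a receptor. A ratio of signals from different probes has no absolute meaning, so its values serve only to compare nuclei, with no test. The log2 ratio of *Gabrb1* to *Gabrb2* was 2.68 ± 0.05 (SD, n = 2) in the Arc, 1.99 ± 0.02 in the VMH, with 1.23 ± 0.10 in the DMH and 0.15 ± 0.40 in the LH. This order held with no overlap among the 8 arrays, and the span from the Arc to the LH was 2.53 on the log2 scale. The log2 ratio of *Gabre* to *Gabrq* was 2.68 ± 0.36 on the Arc arrays, -0.92 ± 0.44 on the VMH arrays, 1.37 ± 0.12 on the DMH arrays, and 0.69 ± 0.57 on the LH arrays. The Arc arrays were the highest and the VMH arrays the lowest, with a difference of 3.59 between their means.

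For glutamate receptors, the log2 ratio of *Grin3a* to the obligatory subunit gene *Grin1* was -1.74 ± 0.05 in the DMH and -3.43 ± 0.37 in the Arc, with -2.34 ± 0.23 in the VMH and -2.93 ± 0.07 in the LH. The DMH arrays lay above and the Arc arrays below all others. The log2 ratio of *Grin2a* to *Grin2b* was lowest on both Arc arrays (-5.57 and -4.67), and its span from the Arc to the LH was 1.51. That of *Grin2d* to *Grin2b* was highest on both LH arrays (-2.88 and -3.47), and its span from the VMH to the LH was 1.67. The ratios of *Gria1* and *Gria4* to *Gria2* spanned 0.87 and 0.89 with overlapping arrays. Ratios with *Gabra2* or *Grik1* in the numerator rest on signals that were not well above background on most arrays, and that of *Gabra2* to *Gabra5* turned its sign under another background correction.

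**Figure D4:**
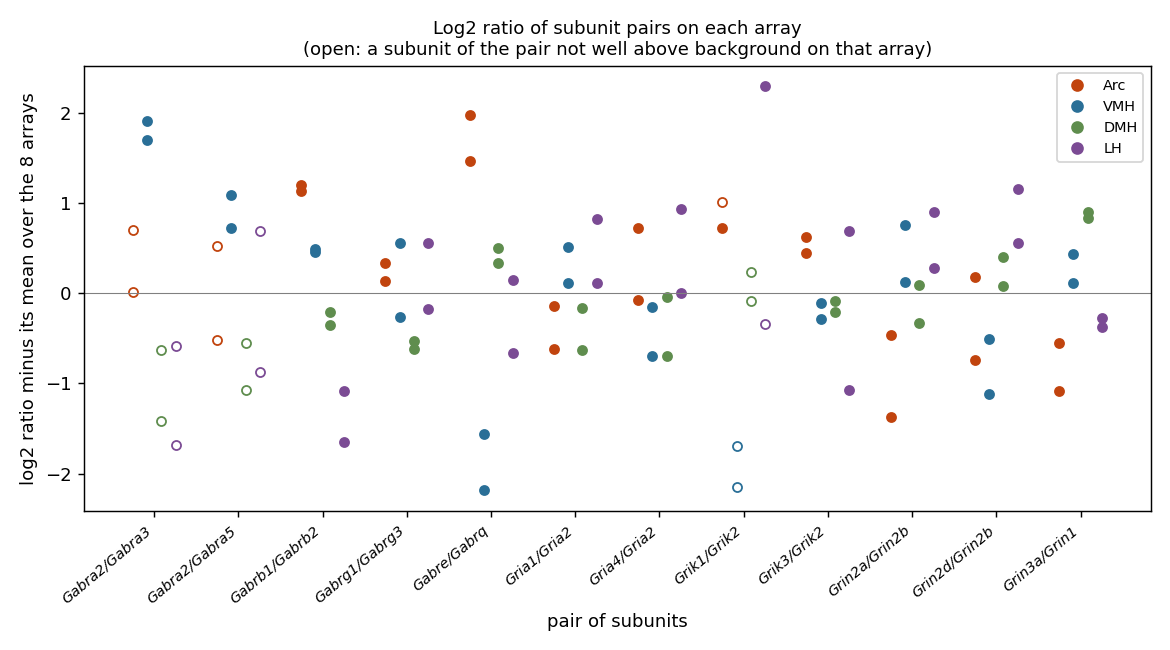
Each column is a pair of subunits and each point is the log2 ratio of the pair on 1 array minus the mean over the 8 arrays, coloured by nucleus, with open points where a subunit was not well above background. The nuclei separate fully for *Gabrb1* over *Gabrb2*, from the Arc at the top to the LH at the bottom, and the Arc and VMH lie at opposite ends for *Gabre* over *Gabrq*.

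**Figure D5:**
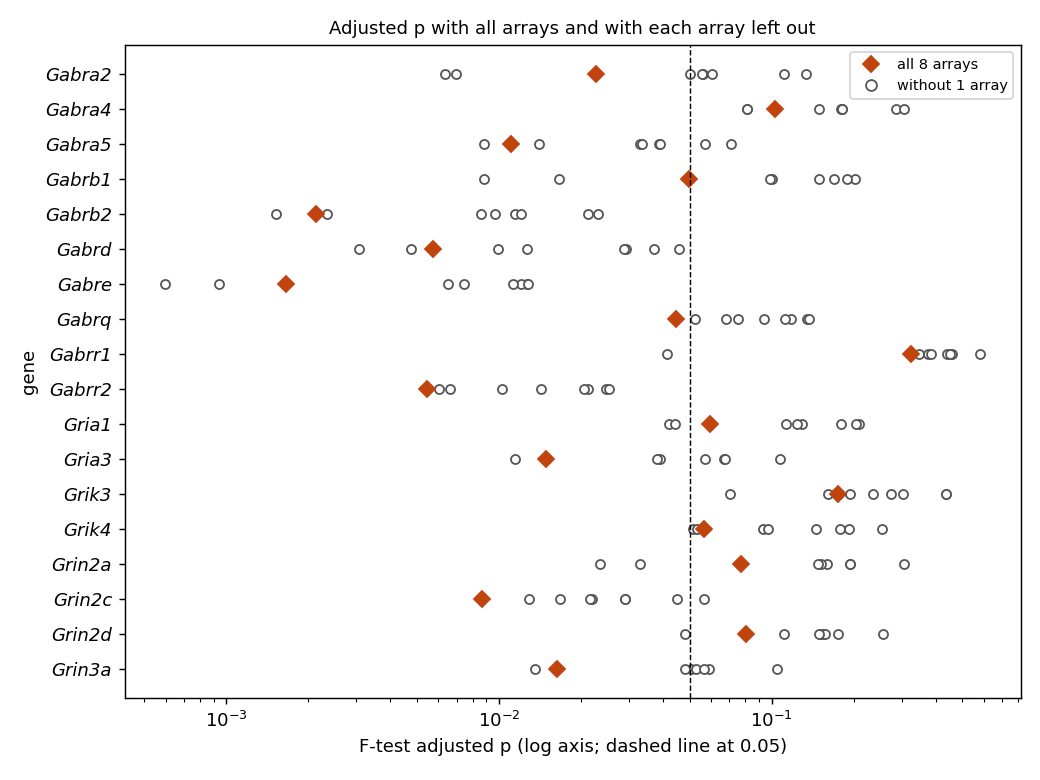
Each row is a tested member whose values are given on every array, the diamond is its F-test adjusted p with all 8 arrays, and the open circles are the values with 1 array left out (log axis, dashed line at 0.05). All circles of *Gabrb2*, *Gabrd*, *Gabre*, and *Gabrr2* lie left of the line, and all circles of *Gabrq* lie right of it.

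The proteins that anchor these receptors, or assist their gating and traffic, were taken from a list of 29 genes with a probe, of which 28 were tested and 9 passed the F-test, where 10.8% of all named genes did. Of the 25 measured on all 8 arrays 8 passed it, where 8.52% of named genes measured on all arrays did. Highest in the VMH were *Nptx1* and *Nptx2*, the genes of neuronal pentraxins that cluster AMPA receptors, and *Cnih3*, which encodes an AMPA receptor partner of the cornichon family. *Nptx1* had scaled signals of 30 and 27.5 in the Arc, 345 and 429 in the VMH, 20.7 and 19.3 in the DMH, and 28.6 and 28.5 in the LH, and it was not well above background outside the VMH, the nucleus through which it entered the test. *Cnih3* had 1897 and 2113 in the VMH and 291 to 436 elsewhere (F-test adjusted p = 0.00347). *Nptx2* spanned 3402 and 4359 in the Arc to 40689.6 and 57044 in the VMH (F-test adjusted p = 0.00432).

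The other called genes of the list peaked elsewhere. *Adarb1*, the editing enzyme for glutamate receptor transcripts, had 8972 and 11000.3 in the LH and 2422 and 2479.8 in the Arc (F-test adjusted p = 0.0109). *Dlg2*, a scaffold of the synapse, was also highest in the LH, at 2139 and 2339.7 against 965 to 1952 elsewhere (F-test adjusted p = 0.0255). *Cacng5*, which encodes an AMPA receptor regulator of the stargazin family, was highest in the Arc, at 2371 and 2421 against 879 to 2006 elsewhere (F-test adjusted p = 0.021). Of the 3 further genes past the F-test, 2 had their highest mean in the DMH and 1 in the LH.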

How the data were processed

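RNA of 4 laser-microdissected nuclei was measured on 8 arrays of 1 slide, in 1 color. The deposited values are intensities that the authors extracted with Agilent Feature Extraction (version 10.7.3.1 per the file headers and 11.5.1.1 per the submitters' processing notes), background-subtracted and detrended but not scaled between arrays. The deposited marks for outlier spots and for spots well above background, of 0 or 1, were used as given. The labels name Cy3 and the methods Cy5, and the red channel was deposited.

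Outlier spots (126 to 161 per array, and 364 on LH1) were left out, spots of a probe were averaged, arrays were divided by their 75th percentile (815 to 1239), and log2 was taken. Without that scaling the median log2 difference of all probes was -0.46 for Arc minus DMH, -0.26 for Arc minus VMH, -0.11 for Arc minus LH, -0.19 for VMH minus DMH, 0.13 for VMH minus LH, and 0.33 for DMH minus LH, and with it at most 0.05. Of 28390 probes with a RefSeq accession, 26762 (94.3%) were named through GRCm38.p6, which was used for names and the order of genes. Probes with 2 arrays well above background in some nucleus (28896) entered 1 limma fit (version 3.58.1, R 4.3.3) with a mean per nucleus, no block, 4 residual and 3.02 prior degrees of freedom, an F-test over the nuclei, and 6 pairwise tests. The threshold was an adjusted p of 0.05. The number of arrays and the signal over background limit the precision.

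A gene was represented by its tested probe with the highest mean log2 signal. Array values are given for members past the F-test or with a ratio of at least 2 between nuclei, other probes where they disagreed, and the 10 other receptor-related genes with the smallest F-test p. The members, lists, and rules were chosen with earlier results of these data known. The scripts were tested on simulated data. Alternatives were no scaling, quantile normalization, normexp (offset 50, on median signals), the deposited table of all arrays, no filter, a filter on all 8 arrays, outliers kept, dim signals raised, a replicate block, trended and robust moderation, the one-way analysis of variance with Tukey-Kramer tests that the methods name, the mean over probes, and each array left out.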

Additional observations from a re-analysis of the deposited data

How the results depend on the processing

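No difference between the highest and the lowest nucleus of the 18 tested members with values on every array changed its sign under any alternative tried. The members and the nuclei compared were picked on these same arrays, so a change of sign was unlikely from the start. Over these members, 195 of the results under the alternatives that kept all arrays stayed on their side of the threshold, 20 passed it and 15 lost it, and with 1 array left out the counts were 106, 6, and 32. The 11 members past the F-test became 19 by the one-way analysis of variance at its own threshold and 3 after Benjamini-Hochberg adjustment, namely *Gabrb2*, *Gabre*, and *Grin2c*, 16 with normexp, 15 with trended and robust moderation, and 5 to 14 with 1 array left out. Arc minus VMH fell from 12 to 6 without the filter and 0 by the adjusted Tukey-Kramer test (12 unadjusted), and was 3 to 13 with 1 array left out. VMH minus LH fell from 8 to 4 without scaling, 4 without the filter, 5 with the filter on all arrays, 5 with the replicate block, and 0 by the adjusted Tukey-Kramer test (9 unadjusted), and was 1 to 8 with 1 array left out. Arc minus LH moved from 7 to 11 with trended and robust moderation and 1 by the adjusted Tukey-Kramer test (4 to 8 with 1 array left out). Arc minus DMH moved from 2 to 4 with trended and robust moderation, and to 5 unadjusted and 0 adjusted by Tukey-Kramer (0 to 3 with 1 array left out). VMH minus DMH moved from 4 to 2 with the filter on all arrays, and to 7 unadjusted and 0 adjusted by Tukey-Kramer (1 to 4). DMH minus LH moved from 2 to 1 without the filter, and to 6 unadjusted and 0 adjusted by Tukey-Kramer (0 to 3). The filter on all 8 arrays removed *Gabra2*, *Gabrd*, *Gabrp*, *Gabrr1*, and *Gabrr2*, and the cause of the other moves was not tested. The log2 ratio of *Gabra2* to *Gabra5*, VMH minus DMH, was 1.72 and became -0.10 with normexp.

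Replicate numbers were not taken as pairs, since no label ties arrays to a mouse and the correlations of same-numbered deviations, -0.03 to 0.26, did not settle it. With the replicate block 9 members passed the F-test, with adjusted p = 0.0517 for *Gabrb1* and 0.0514 for *Gabrq*, and the block changed no other F-test call of the 11. With 1 array left out, the lone array of a nucleus was assumed to vary like the others. The 2 arrays per nucleus limit all results.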

Other observations

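Of the 9 tested metabotropic receptors, which act through G proteins, 4 passed the F-test, all 4 lowest in the Arc, where 10.8% of all named genes passed it and 4.94% did so with their lowest mean in the Arc. The other 5 did not pass it, and their lowest means were also in the Arc, which was the lowest nucleus for 32.8% of all named genes tested, called or not. Of the 8 measured on all 8 arrays 3 passed the F-test, where 8.52% of named genes measured on all arrays did. *Grm3* had scaled signals of 74.4 and 114 in the Arc, 280.3 and 207 in the VMH, 354 and 385 in the DMH, and 914 and 1039 in the LH (limma F-test adjusted p = 0.0038), highest on both LH arrays and not well above background in the Arc. *Grm5*, a postsynaptic receptor coupled to release of calcium, had 1585 and 1803 in the Arc and 7046 and 7757 in the VMH, with 3590.4 to 4686 in the DMH and LH (F-test adjusted p = 0.00657). The other 2 that passed the F-test were highest in the VMH.

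Of the glycine receptor genes, whose products are the other ligand-gated chloride channels, 4 were tested and 2 passed the F-test, both highest in the VMH, where 10.8% of all named genes passed it and 3.15% did so with their highest mean in the VMH. Of the 3 measured on all 8 arrays 1 passed it, where 8.52% of named genes measured on all arrays did. *Glra1* had scaled signals of 667 and 1096 in the Arc, 6320.2 and 8264 in the VMH, 1746 and 1833 in the DMH, and 3434 and 3327 in the LH (F-test adjusted p = 0.00522), with both VMH arrays above and both Arc arrays below all others. *Glra3* had 767 and 930.4 in the VMH and at most 177 elsewhere (F-test adjusted p = 0.0129), and it was well above background on 5 arrays. The summed signal of the neuronal markers was also highest in the VMH and lowest in the Arc, with 4 of the 8 genes highest in the VMH and 4 in the LH, and their part in these differences was not tested. Microglial markers, with 0 of 6 tested past the F-test, had summed signals of 82090.2 to 86117 in the LH and 100634 to 122017 elsewhere, although 3 of the 6 tested had their highest mean in the LH and 1 its lowest. Endothelial markers, with 1 of 5 tested past it, had 5017 to 7258 in the LH and 3115 to 4983 elsewhere, with 3 of the 5 tested highest and 2 lowest in the LH.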
